A study of Mus musculus with 6 samples.

Results

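The platelet-derived growth factor (PDGF) family was examined in sorted mouse heart cells: the ligand genes Pdgfa, Pdgfb, Pdgfc and Pdgfd and the receptor genes Pdgfra and Pdgfrb. The 6 genes were taken by symbol from a table of 23404 genes, and all 6 are among the 12907 genes with enough reads to be tested. The samples were cardiomyocyte preparations from C57BL/6J mice, split by flow cytometry into 2 gates. FITChigh cells were bright in green autofluorescence and dim in forward scatter, a measure that grows with particle size, and FITCdim cells were the reverse. Each gate had 3 libraries, which the series text calls biological replicates. The strain and the labelled cell type are shared by both gates, and the labels used here give no age, sex, genotype or treatment.

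PDGF ligands are secreted dimers that bring 2 receptor chains together and switch on their tyrosine kinases. PDGF-AA and PDGF-CC act mainly through the alpha receptor, PDGF-BB through both receptors and PDGF-DD mainly through the beta receptor. In the heart, Pdgfra is a classical gene of fibroblasts and Pdgfrb one of mural cells, the pericytes and smooth muscle cells on vessel walls. Pdgfb is made by endothelial cells, whose signal through Pdgfrb recruits pericytes to new vessels.

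The 4 members Pdgfb, Pdgfd, Pdgfra and Pdgfrb were lower in FITChigh, none was higher, and Pdgfa and Pdgfc did not pass the test. Pdgfrb fell 5.43-fold, Pdgfb 4.9-fold, Pdgfra 4.0-fold and Pdgfd 3.13-fold, as fitted on log2(value + 1). Among the ligands, Pdgfb and Pdgfd were lower, while Pdgfa, a ligand of the alpha receptor, stood at 25.3 ± 10.5 in FITChigh and 20.7 ± 3.90 in FITCdim (mean adjusted read counts ± SD, n = 3 each). Of all tested genes, 13.5% were called lower and 2.51% higher. In 20.2% of them all 3 FITChigh values lay below all 3 FITCdim values, as they did for the 4 lower members.

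Depth, in recovered reads, ran from 1589825 to 2931045 for FITChigh and from 1705626 to 3345994 for FITCdim. Values are adjusted read counts: reads per gene after the authors' adjustment for library size, not divided by gene length. Their totals remained higher in FITChigh (2333473 to 2443707) than in FITCdim (2030583 to 2112872). The labelled cell type was checked on 14 cardiomyocyte markers, whose summed level of 443000 to 475800 (FITChigh) and 289700 to 343900 (FITCdim) shows them abundant in both gates. Markers of other cells were lower in FITChigh: 16 of 16 tested endothelial, 12 of 14 mural and 12 of 13 tested fibroblast genes. In bulk samples, fewer cells of a type and less RNA per cell cannot be told apart. Among all calls 15.6% were rises, against 1.84% with each library rescaled to one total and 27.8% after quantile normalization. Those scalings shifted the median gene (log2 fold change -0.0060) to -0.20 and 0.13.

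The stretches of 250 bases before an annotated start are shown for 3 members: Pdgfra and Pdgfd, which fell together, and Pdgfa, which did not. The stretches come from RefSeq's promoter table (GRCm38.p6, the build also called mm10), which matched 4 of the 6 symbols. The other one matched, Pdgfc, is described below but not printed. Each runs 5′ to 3′ on the strand of its gene. Capitals mark matches, on either strand, to 1 of 6 motifs. They are TATAAA, the core promoter element, and CCAAT, a common upstream element. GGGCGG is known as the GC box. GGAAG is the core of ETS factor sites. AGATAA is a form of the site of GATA factors. The CArG box is the site of serum response factor.
Pdgfra, chr5:75152001-75152250, plus strand: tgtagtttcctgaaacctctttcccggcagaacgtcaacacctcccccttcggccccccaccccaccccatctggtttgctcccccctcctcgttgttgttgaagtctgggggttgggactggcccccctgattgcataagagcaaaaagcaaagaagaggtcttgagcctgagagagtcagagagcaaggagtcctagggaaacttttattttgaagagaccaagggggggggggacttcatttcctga
Pdgfd, chr9:6168236-6168485, plus strand: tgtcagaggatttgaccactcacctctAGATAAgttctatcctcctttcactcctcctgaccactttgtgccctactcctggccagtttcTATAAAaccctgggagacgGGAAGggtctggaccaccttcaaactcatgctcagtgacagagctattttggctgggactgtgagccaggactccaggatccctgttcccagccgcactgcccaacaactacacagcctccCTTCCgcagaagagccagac
Pdgfa, chr5:138994945-138995194, minus strand: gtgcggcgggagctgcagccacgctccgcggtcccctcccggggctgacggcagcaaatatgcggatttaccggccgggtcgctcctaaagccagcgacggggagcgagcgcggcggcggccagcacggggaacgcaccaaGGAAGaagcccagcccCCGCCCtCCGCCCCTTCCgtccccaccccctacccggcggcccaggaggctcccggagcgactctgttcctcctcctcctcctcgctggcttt

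The Pdgfa window was rich in G and C (72.4%) with 28 CG dinucleotides, and 93.6% of 32851 promoter windows were poorer in G and C. The windows of Pdgfra and Pdgfd stood at 54.4% with 4 CG dinucleotides and 53.6% with 3, near the median window of 52.4% with 6. A second annotated start of Pdgfa had 66.4% and 19. Both Pdgfa windows lie inside the gene span used here, which comes from another annotation, GENCODE, and reaches to 138997370. They are therefore not upstream of that whole span. The window of Pdgfc, which did not pass the test either, stood at 50.8% with 3. The Pdgfa window held 2 GC boxes, which 32.7% of windows hold at least once, and 2 GGAAG matches, 1 of them next to a GC box without sharing a base. Pdgfd held 1 TATAAA, 160 bases before the start, beside 1 AGATAA and 2 GGAAG. Of these, TATAAA occurs in 12.4% of windows, AGATAA in 9.99% and GGAAG in 64.1%. Pdgfra held none of the motifs searched, CCAAT (33.8% of windows) and the CArG box (1.47%) included. Pdgfc held 1 CArG box, 17 bases before the start, and 2 GGAAG. These are letter matches in 1 window per start, not binding sites, and their part in the levels was not tested.

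Pdgfb encodes the B chain, the ligand that binds both receptors, and lies on chromosome 15 from 79995874 to 80014977. It stood at 14.2, 18.7 and 26.8 adjusted read counts in FITChigh replicates 1, 2 and 3 and at 98.2, 91.8 and 105.9 in FITCdim. The highest FITChigh library was far below the lowest FITCdim library. The log2 fold change was -2.29 (SE 0.24; limma-trend, adjusted p = 6.39e-06). Behind it were 60 reads in FITChigh, 8.49 RPM (the reads-per-million of all recovered reads; exact 95% binomial interval 6.48 to 10.9), and 329 in FITCdim, 47.6 RPM (42.6 to 53.1). Such intervals cover counting error alone.

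Pdgfd encodes a ligand that is secreted with a CUB domain and must be cut by proteases before it can bind the beta receptor. The gene lies on chromosome 9 from 6168584 to 6378850. It stood at 7.59, 5.49 and 16.5 in FITChigh against 26.2, 28.6 and 36.2 in FITCdim. Its FITChigh libraries differed by a factor of 3 among themselves, and still none reached the FITCdim range. The log2 fold change was -1.65 (SE 0.37, limma-trend adjusted p = 0.00553), from 31 and 99 reads.

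Pdgfa encodes the A chain, a ligand of the alpha receptor (chromosome 5, 138976014 to 138997370). It stood at 13.2, 31.3 and 31.5 in FITChigh and at 24.1, 16.5 and 21.7 in FITCdim. FITChigh held both the lowest and the highest libraries, so the groups overlapped. The difference of 0.20 in log2 (SE 0.34, limma-trend adjusted p = 0.764) was not called, and its 95% interval of -0.54 to 0.93 holds falls and rises of under 2-fold. The recovered reads were 74 and 71, or 10.5 and 10.3 RPM. Without FITChigh replicate 2 or 3 the log2 fold change was -0.00036 or -0.0051, and over 16 alternatives the adjusted p ran from 0.284 to 1.

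Pdgfc encodes the other CUB-domain ligand, which tissue plasminogen activator cuts into its active form (chromosome 3, 81036416 to 81214040). It was the least abundant ligand, at 0.905, 9.37 and 2.23 in FITChigh and 8.10, 7.39 and 4.69 in FITCdim. FITChigh replicate 2 was the highest of the 6 libraries and FITChigh replicate 1 the lowest. With 11 and 23 reads behind them, the log2 fold change of -0.92 (SE 0.57, interval -2.12 to 0.28, limma-trend adjusted p = 0.319) left no difference detectable at this depth. It was -0.39 without FITChigh replicate 1 (limma-trend adjusted p = 0.741) and -1.61 without FITChigh replicate 2 (adjusted p = 0.0585).

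Pdgfrb, the beta receptor of mural cells (chromosome 18, 61045150 to 61085061), was the most even member in FITChigh, at 22.0, 21.6 and 21.5 adjusted read counts. Counting error at the 23, 14 and 27 reads behind them is wider than this spread, so the evenness is not read as a trait of the gene. In FITCdim Pdgfrb stood at 148.8, 109.4 and 112.0. The log2 fold change was -2.44 (SE 0.21, limma-trend adjusted p = 6.74e-07). The reads were 64 in FITChigh, 9.06 RPM (exact 95% binomial interval 6.98 to 11.6), against 429 in FITCdim, 62.1 RPM (56.4 to 68.3). Of all tested genes, 3.87% had a lower log2 fold change than Pdgfrb, and 4.83% a lower one than Pdgfb.

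Pdgfra, the alpha receptor of fibroblasts (chromosome 5, 75152292 to 75198215), was low in both gates. It stood at 3.82, 1.92 and 4.88 in FITChigh and at 21.3, 13.9 and 14.9 in FITCdim. The groups did not overlap, though FITChigh rested on 4, 1 and 6 reads. The log2 fold change was -2.0 (SE 0.41, limma-trend adjusted p = 0.00266) on the log2(value + 1) scale, which understates changes of low genes. The ratio of the mean levels was 4.72.

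**Figure D1:**
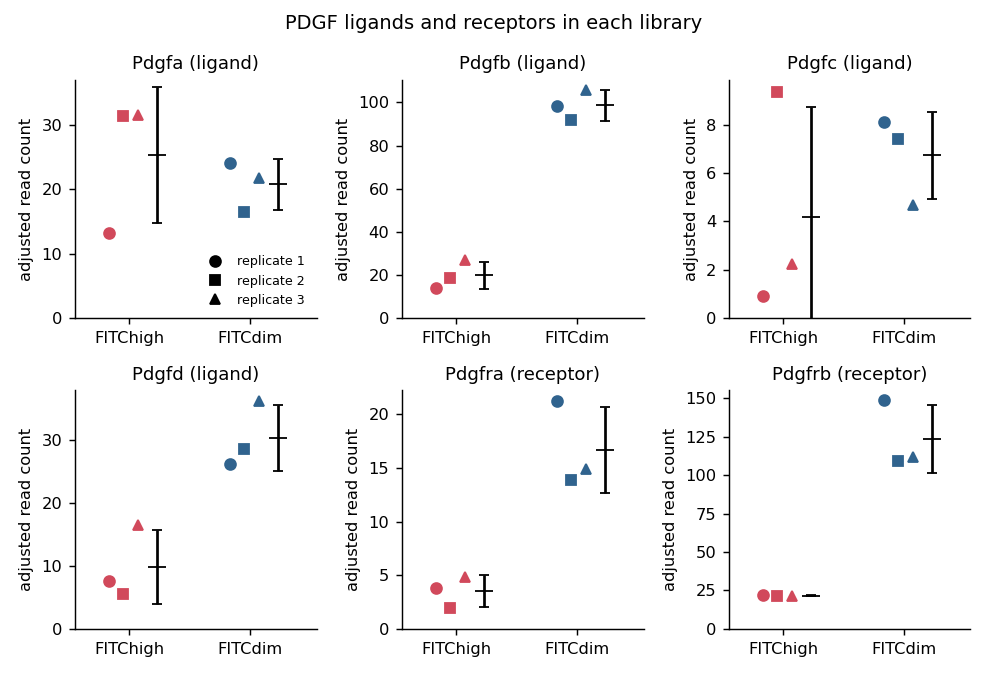
Adjusted read counts (vertical axes, each from 0) of the 4 ligand and 2 receptor genes in 3 FITChigh (red) and 3 FITCdim (blue) libraries; symbols mark the replicate, bars the mean and SD, with the lower bar of Pdgfc in FITChigh ending below 0 and clipped. Pdgfb, Pdgfd, Pdgfra and Pdgfrb do not overlap between the gates, while Pdgfa (13.2 to 31.5 against 16.5 to 24.1) and Pdgfc do.

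Levels of different genes were compared per kb of merged exon. In FITCdim the order was Pdgfb at 23.7 ± 1.69 adjusted read counts per kb, Pdgfrb at 22.5 ± 4.03, Pdgfd at 9.62 ± 1.67, Pdgfa at 6.65 ± 1.25, Pdgfra at 1.67 ± 0.399 and Pdgfc at 1.32 ± 0.353 (SD, n = 3 each). The neighbours Pdgfb and Pdgfrb, and Pdgfra and Pdgfc, overlapped over the libraries. The B chain and its mural receptor were thus the leading pair in FITCdim. In FITChigh the order was Pdgfa at 8.12 ± 3.37, Pdgfb at 4.79 ± 1.53, Pdgfrb at 3.96 ± 0.0473, Pdgfd at 3.12 ± 1.85, Pdgfc at 0.819 ± 0.894 and Pdgfra at 0.353 ± 0.150 (SD, n = 3 each). Neighbours overlapped there throughout, Pdgfc and Pdgfd (0.178 to 1.84 and 1.74 to 5.23) included. Pdgfa, below Pdgfb, Pdgfrb and Pdgfd in FITCdim, had the highest mean in FITChigh, where it overlapped Pdgfb. Divided by the longest transcript instead, Pdgfa stood at 12.3 in FITChigh and 10.1 in FITCdim, and Pdgfb at 6.76 and 33.5. On that scale Pdgfd stood at 9.69 in FITCdim, so Pdgfa and Pdgfd changed places there.

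**Figure D2:**
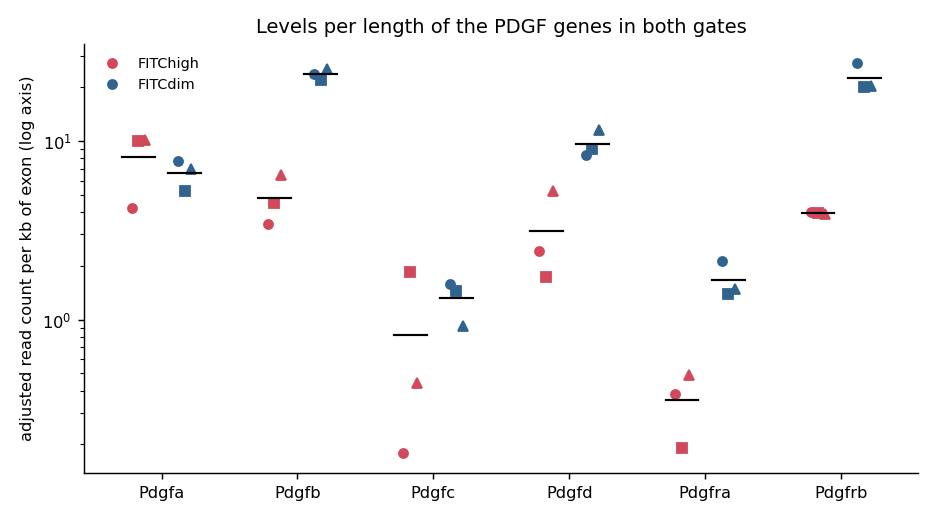
Adjusted read counts per kb of merged exon (log axis) for each member in FITChigh (red) and FITCdim (blue), with symbols for replicates 1 (circle), 2 (square) and 3 (triangle) and a line at the mean. Pdgfb and Pdgfrb lead in FITCdim at 23.7 and 22.5, and Pdgfa has the highest mean in FITChigh at 8.12.

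The change of each ligand was then set against that of each receptor, by subtracting the log2 value of the receptor in the same library from every gene and fitting the whole table again. There were 9 such comparisons. Pdgfa rose relative to Pdgfra. The log2 ratio was 1.56, 3.47 and 2.47 in FITChigh and 0.17, 0.23 and 0.51 in FITCdim, with no overlap. The difference was 2.20 (SE 0.48, interval 1.26 to 3.13, limma-trend adjusted p = 1.07e-05). Relative to Pdgfra, 82.3% of all genes were called higher in FITChigh and 0.705% lower, so Pdgfa shares this with most of the table. Every gene in that fit carries the error of the 1 receptor subtracted. The fit pools the spread over genes, so this shared error is treated as if it were known from many genes. The p-values and intervals of these 9 comparisons therefore claim more certainty than 3 libraries per gate give.

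Pdgfc over Pdgfra did not pass (1.08, SE 0.60, limma-trend adjusted p = 0.0865), and its FITChigh libraries ran from -1.34 to 1.83 on the log2 scale. It passed without FITChigh replicate 1 (1.69, adjusted p = 0.0172) or replicate 3 (1.45, adjusted p = 0.0285), and was 0.10 without FITChigh replicate 2 (adjusted p = 0.881). Pdgfb over Pdgfrb, endothelial ligand over mural receptor, overlapped between the gates. The log2 ratio was -0.59, -0.19 and 0.31 in FITChigh and -0.59, -0.25 and -0.080 in FITCdim. The difference of 0.15 (interval -0.43 to 0.73) did not pass (limma-trend adjusted p = 0.626), which does not show that both genes change alike. Pdgfd over Pdgfrb was at the threshold, 0.80 higher in FITChigh (SE 0.38, limma-trend adjusted p = 0.04996). It did not pass under 6 of 16 alternatives, among them the lower pseudocount (adjusted p = 0.0796), and it was 0.38 without FITChigh replicate 3 (adjusted p = 0.386), 0.56 without FITCdim replicate 1 (0.252) and 0.84 without FITCdim replicate 2 (0.0963).

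Against the receptor each binds less or not at all, Pdgfa over Pdgfrb rose by 2.64 (SE 0.35, limma-trend adjusted p = 5.65e-09) and Pdgfc over Pdgfrb by 1.52 (SE 0.53, limma-trend adjusted p = 0.00745). The latter was 0.83 without FITChigh replicate 2 (adjusted p = 0.169) and 1.51 without FITCdim replicate 1 (adjusted p = 0.0509). Relative to Pdgfrb, 88.2% of all genes were higher in FITChigh and 0.364% lower. Pdgfb over Pdgfra (-0.29, interval -1.16 to 0.57), Pdgfd over Pdgfra (0.35, interval -0.62 to 1.33) and Pdgfrb over Pdgfra (-0.44, interval -1.30 to 0.41) did not pass (limma-trend adjusted p = 0.537, 0.508 and 0.340). Pdgfb over Pdgfra passed with a pseudocount of 5 (-0.74, adjusted p = 0.0195). For Pdgfrb over Pdgfra, mural over fibroblast receptor, this depended on the setting. It passed with a pseudocount of 5 (-0.91, adjusted p = 0.00347) and after quantile normalization (-0.90, adjusted p = 0.0379), and was -0.73 without FITChigh replicate 2 (adjusted p = 0.0542) and -0.22 without FITChigh replicate 3 (adjusted p = 0.660).

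**Figure D3:**
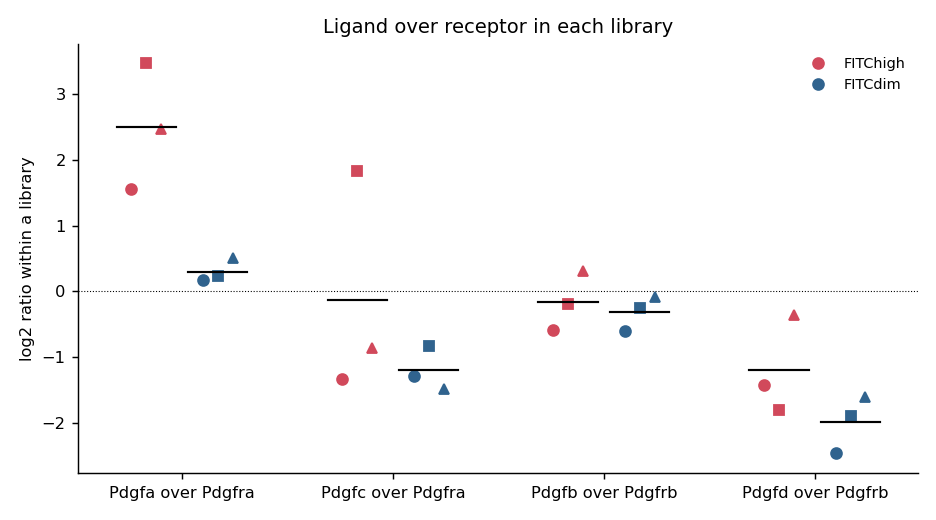
Log2 ratio of a ligand to a receptor within each library, for 4 pairs, in FITChigh (red) and FITCdim (blue), with symbols for replicates 1 (circle), 2 (square) and 3 (triangle) and a line at the mean. Pdgfa over Pdgfra is higher in all 3 FITChigh libraries (1.56 to 3.47) than in FITCdim (0.17 to 0.51), and Pdgfb over Pdgfrb overlaps.

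The receptors were read beside markers of their cell types. Fibroblast markers had a median log2 fold change of -2.63, led by the matrix proteoglycan gene Dcn (-3.18). Mfap5, with only 2 reads in FITChigh, stood at -2.86 and Col3a1, a fibrillar collagen gene, at -2.80. Fbln1, the list's most abundant gene by adjusted read count over both gates, did not pass (-0.15, limma-trend adjusted p = 0.576). In FITCdim it stood at 187.7, below Dcn (243.1) and Gsn (229.2). Tcf21, a fibroblast transcription factor listed at 0 in all FITChigh libraries, had only 4 reads in FITCdim and was not tested. The summed list stood at 291.5 to 335.3 adjusted read counts in FITChigh and 822.4 to 1378 in FITCdim, and without Fbln1 at 126.8 to 151.0 and 648.9 to 1204. Pdgfra amounted to 0.657% to 1.64% of the full sum in FITChigh and 1.54% to 1.82% in FITCdim, which overlapped.

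Mural markers had a median of -2.44. Steap4 stood at -3.15, Tagln, a smooth muscle actin-binding gene, at -3.11 and the pericyte gene Rgs5 at -2.87. Abcc9, a subunit of potassium channels that myocytes also carry, was far more abundant than the others and did not pass (0.097, limma-trend adjusted p = 0.777). The full sum was 1406 to 1865 in FITChigh and 2015 to 2636 in FITCdim. Without Abcc9, a choice made after its values were seen, it was 398.4 to 495.5 and 1107 to 1510. Pdgfrb amounted to 4.43% to 5.39% of the latter sum in FITChigh and 9.86% to 10.1% in FITCdim, without overlap. Acta2, smooth muscle actin, held most of that sum in FITChigh (303.6 ± 55.7, and 414.4 ± 78.5 in FITCdim; SD over 3 libraries; -0.45, limma-trend adjusted p = 0.0854) and was named after its values were seen.

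The endothelial list, whose cells make Pdgfb, had a median of -2.71. Its members ran from -3.14 in Cldn5, a tight junction gene, to -2.16, and Pdgfb at -2.29 lay inside that range. The von Willebrand factor gene Vwf stood at -3.02 and the adhesion gene Esam at -2.93. The list summed to 952.3 to 1306 in FITChigh and 6616 to 7891 in FITCdim, with Fabp4 as its most abundant gene by adjusted read count. Pdgfb amounted to 1.43% to 2.24% of this sum in FITChigh and 1.24% to 1.6% in FITCdim, which overlapped, while Pdgfa amounted to 1.39% to 2.63% in FITChigh and 0.237% to 0.327% in FITCdim, which did not. Against the summed cardiomyocyte markers, Pdgfa amounted to 0.00277% to 0.00711% in FITChigh and 0.00500% to 0.00832% in FITCdim, which overlapped. The part of these other cells in the members' levels was not tested.

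**Figure D4:**
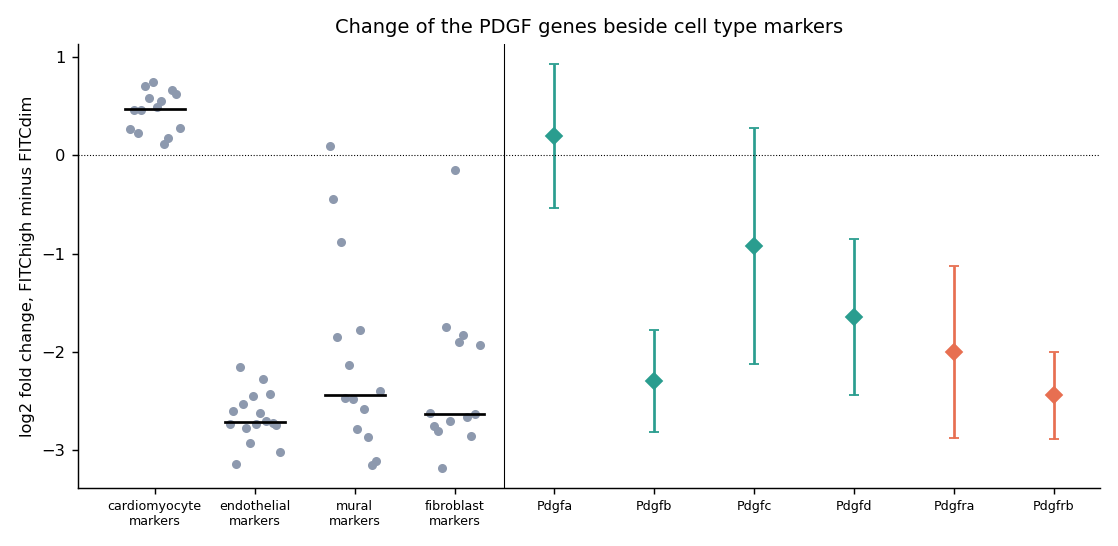
Log2 fold change, FITChigh minus FITCdim, of single marker genes (grey points, black line at the list's median) and of the PDGF ligands (green) and receptors (orange), whose bars are 95% intervals of the limma fit. Pdgfb and Pdgfrb (-2.29 and -2.44) lie near the endothelial, mural and fibroblast medians (-2.71, -2.44 and -2.63). Pdgfa (0.20, interval -0.54 to 0.93) lies between the median of all tested genes (-0.0060) and that of the cardiomyocyte markers (0.47).

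The genes with the profile most like a member's were found by the mean absolute gap between log2 values, centred per gene, over the 6 libraries. For Pdgfrb these were S1pr1, an endothelial receptor for sphingosine 1-phosphate (gap 0.056), Ednrb, an endothelin receptor (0.058), and Thbd, which encodes the endothelial protein thrombomodulin (0.062). For Pdgfb they were Ceacam1 (0.037), Tmem204 (0.090) and Fli1, an ETS factor of endothelial and blood cells (0.098). For Pdgfa they were Dgcr8 (0.096), a line listed as Mir568 (0.14) and Klhl13 (0.14), each with limma-trend adjusted p of 0.68 to 0.973. All share the gate difference of the member, so a small gap says no more than a like difference between the gates. The nearest were Sfxn1 (0.15), Inpp5f (0.19) and Ankrd44 (0.19) for Pdgfd, Mecom (0.11), Ano6 (0.13) and Cap1 (0.14) for Pdgfra, and Dpy19l1 (0.24), Cask (0.30) and Nmi (0.35) for Pdgfc. For these 3 members at most 1 of the nearest genes was the same with a pseudocount of 5.

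The other genes of PDGF signalling were taken from a list of 66, of which 64 were tested. In it 21 were lower in FITChigh, 0 higher and 43 did not pass, so 32.8% were lower against 13.5% of all genes tested. The median log2 fold change was -0.44 against -0.0060. By role, of the genes for ligand processing and matrix, 7 of 10 fell (median -2.08). The co-receptor gene Nrp2 had adjusted read counts of 26.1 ± 17.3 (FITChigh) and 214.5 ± 31.6 (FITCdim; SD over 3 libraries; log2 fold change -3.16, limma-trend adjusted p = 3.08e-06) and the proprotein convertase gene Pcsk6 at 2.15 ± 1.82 against 20.9 ± 10.8 (SD, n = 3 each; -2.91, limma-trend adjusted p = 9.77e-04). Plat, the protease that activates the C chain, stood at -2.61 and Sparc, a matrix protein that binds PDGF, at -2.27, while Furin, a convertase of the A and B chains, stood at -0.13 and did not pass. These 3 were chosen after their values were seen.

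Of the adaptors and enzymes at the receptor 4 of 23 tested were lower (17.4%, median -0.44), and of the downstream cascade 4 of 20 (20.0%, median -0.066). Both shares were near the 13.5% of all genes tested. Akt1, a kinase of cell survival and the list's most abundant cascade gene by adjusted read count, stood at 589.9 ± 29.7 and 578.8 ± 12.3 (SD, n = 3 each; 0.026, limma-trend adjusted p = 0.916). Of the brakes on receptor kinases 6 of 11 fell (median -1.30). Spry1, an inhibitor of the Ras pathway, stood at 4.35 ± 2.46 against 39.6 ± 8.20 (SD, n = 3 each; -3.01, limma-trend adjusted p = 3.54e-05), and Ptprj, a receptor-type phosphatase, at 2.44 ± 1.92 against 19.1 ± 10.4 (SD, n = 3 each; -2.63, limma-trend adjusted p = 0.00302).

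**Figure D5:**
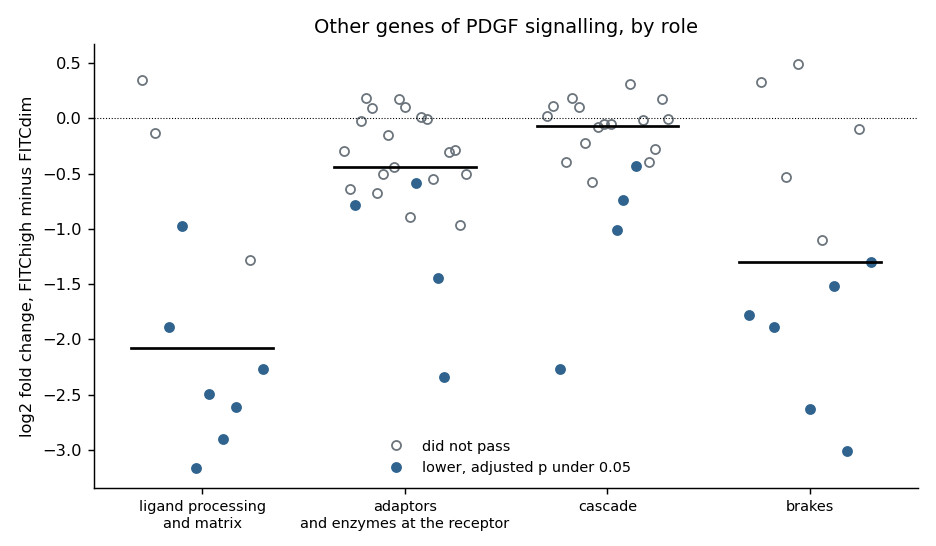
Log2 fold change, FITChigh minus FITCdim, of 64 tested genes of PDGF signalling in 4 roles; filled points passed the test (adjusted p under 0.05), open points did not, and lines mark medians. Ligand processing genes have a median of -2.08 and cascade genes of -0.066.

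The relatives of the receptors in the same kinase class were lower in FITChigh as well, where they had reads. Kit, the stem cell factor receptor, stood at 3.83 ± 1.89 against 24.3 ± 6.80 (SD, n = 3 each; -2.43, limma-trend adjusted p = 5.25e-04) and Csf1r, the macrophage receptor, at 11.6 ± 2.69 against 72.9 ± 34.2 (SD, n = 3 each; -2.48, limma-trend adjusted p = 4.73e-05). Flt3 was listed at 0 in all 6 libraries. Genes that growth factors induce within minutes to hours were counted as well: of 17 tested, 7 were lower, 0 higher and 10 did not pass (41.2% lower, against 13.5% of all genes tested, with 2.51% of those higher; median -0.35 against -0.0060). They were led by Ccl2, a chemokine gene (-2.98), Egr3 (-2.69), Klf4 (-2.25) and Egr2 (-1.37), and the abundant Egr1 stood at 1850 ± 113.8 against 2458 ± 221 (SD, n = 3 each; -0.41, limma-trend adjusted p = 0.0476). Their count was 3 without FITCdim replicate 1 and 4 without FITChigh replicate 1 or FITCdim replicate 2. What induces these genes in the cells sorted was not tested.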

How the data were processed

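Polyadenylated RNA of 6 samples was sequenced as 75-base read pairs with a strand-specific kit, per the labels' protocols. STAR 2.5, edgeR and mm10 are named in the submitters' processing notes. The sources used here do not give the counting program, the annotation or whether strand was used. What the authors deposited is a signal table, with reads per gene adjusted for library size. The adjustment is a quantile step, not one factor per library, and column totals still differ (2333473 to 2443707 in FITChigh, 2030583 to 2112872 in FITCdim). Of 23410 lines 6 were garbled and left out. Reads were recovered by inverting the adjustment (dispersion 0.0203); 100% came out whole within 0.1. They serve depth, binomial intervals and 1 alternative.

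Genes at 1 or more in at least 3 of 6 libraries entered, as log2(value + 1), a fit with limma 3.58.1 (limma-trend, no block, two-sided) in R 4.3.3, Benjamini-Hochberg adjusted, threshold 0.05. Since the animals behind a library are not named, p-values cover the spread among the 6 libraries. Replicate numbers follow accession order. Exon lengths and gene positions come from GENCODE M21 (mm10). Hras and Adgre1 were found under older symbols. The fit and the read recovery were tested on simulated data. Members and lists were chosen with earlier results of these data known. Named are the members, their nearest profiles and the relatives of the receptors. Per list, the most abundant gene over both gates and the largest changes past the test are also named. Others were chosen after their values were seen.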

Additional observations from a re-analysis of the deposited data

How the results depend on the processing

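Under 16 alternatives each, Pdgfb (-2.52 to -2.09), Pdgfd (-2.06 to -1.25), Pdgfra (-2.22 to -1.35) and Pdgfrb (-2.64 to -2.25) remained lower and past the test, and Pdgfa and Pdgfc did not pass under any that tested them; the filter of at least 10 removed Pdgfc. Over the 6 members and 9 ratios, 219 refitted values kept direction and side of the threshold, 8 lost the call, 7 gained it and 3 changed sign. For these, and for the counts below, the cause was not tested. Pdgfd over Pdgfrb was 0.76, 0.80 and 0.80 (adjusted p = 0.0796, 0.0851 and 0.087) with a pseudocount of 0.5, no filter and no trend. With a pseudocount of 5, Pdgfb, Pdgfc and Pdgfrb over Pdgfra passed (-0.74, 0.89 and -0.91; adjusted p = 0.0195, 0.00936 and 0.00347). Pdgfrb over Pdgfra also passed after quantile normalization (-0.90, adjusted p = 0.0379), and Pdgfc over Pdgfra without a trend (1.08, adjusted p = 0.0332). Genes called higher, 324 in the report, numbered 41 with one common total and 69 without a trend; immediate-early genes called lower, 7 in the report, numbered 4 without a trend.

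Leaving out 1 library in turn, with the remaining libraries of both gates sharing one estimate of spread, gave 67 to 337 genes higher, 1156 to 1667 lower and 3 to 6 immediate-early genes lower. Fewer libraries leave less power. It gave -0.0051 to 0.59 for Pdgfa, with -0.00036 without FITChigh replicate 2, 0.10 to 1.69 for Pdgfc over Pdgfra, 0.83 to 2.06 for Pdgfc over Pdgfrb, 0.38 to 1.1 for Pdgfd over Pdgfrb and -0.085 to 0.36 for Pdgfb over Pdgfrb. Titles of both gates share a tag (none, 1-2, 3-4), whose pairing was checked by the correlation of deviations from the group means. It was 0.071, 0.13 and 0.17 for same-tagged libraries and -0.12 to -0.0081 for the others. The first fell short of 0.1 and the tag was not taken to pair the libraries, although every library correlated best with its own tag. With the tag as a replicate block 1064 genes were higher and 2059 lower. In the PDGF list 29 genes were then lower and 2 higher, Bmp1 (0.34) and Ptpn2 (0.49). The shares of all genes given above come from the fit without a block.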

Other observations

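Markers of epicardial cells and leukocytes were lower in FITChigh as well. Of 5 tested epicardial markers 5 fell, with a median log2 fold change of -3.01. They were led by Msln, the mesothelin gene (-4.07, limma-trend adjusted p = 5.09e-05), and Upk3b (-3.91), with only 3 and 5 reads in FITChigh. Of 9 tested leukocyte markers 9 fell (median -2.55), among them the complement gene C1qc (-3.07). Cd3e, Cd79a and S100a8, listed at 0 in all FITChigh libraries, had only 1, 2 and 2 reads in FITCdim and were not tested. Platelets store PDGF, but their markers were scarce. Pf4, the platelet factor 4 gene, had adjusted read counts of 2.06 ± 1.63 (FITChigh) and 14.3 ± 11.8 (FITCdim; SD over 3 libraries; -2.16, limma-trend adjusted p = 0.016), while Itga2b, the other platelet marker tested, did not pass (2.75 ± 0.370 and 2.54 ± 1.32; 0.15, limma-trend adjusted p = 0.879). Gp9 and Treml1 were listed at 0 in all 6 libraries, and Ppbp and Gp1bb had 0 reads in FITChigh and 2 each in FITCdim, so no difference could be read from these 4.

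Pdgfrl, a receptor-like gene without a kinase and chosen after its values were seen, had 5 recovered reads in FITCdim and 0 in FITChigh. The FITCdim reads were 4, 1 and 0 in replicates 1, 2 and 3. A total of 0 was taken to allow up to 3 reads, and no difference was read from this gene.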
